A study of Mus musculus with 4 samples.

Results

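The Igf2r-Airn imprinted cluster lies on mouse chromosome 17 and is described here through 5 genes chosen by name, Igf2r, Airn, Slc22a2, Slc22a3 and Mas1, of 26130 genes listed. All 5 were found once in each of the deposited tables, and 1 of them, Igf2r, reached 1 RPM (reads per 1000000 reads of the library total) in any library. RNA came from mouse embryonic stem cells of 2 lines. E14 is of strain 129P2/OlaHsd, and the strain of JB1 is given as JF1/B6. Each line was sequenced as wild type and as Zfp57-/-, the label for knockout of the gene of the zinc finger protein ZFP57. This protein recognises imprinting control regions by their methylation, and it was not itself measured here. All cells were grown without feeder cells on gelatin, in serum with leukemia inhibitory factor, and 1 library per line and genotype was made with a stranded mRNA kit. The labels name no clone number, no deletion breakpoints and no replicate within a line, so each group is 1 library and intervals within a line cover counting error only.

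Igf2r encodes the cation-independent mannose 6-phosphate receptor, which delivers newly made hydrolases to lysosomes and carries the growth factor IGF2 to its degradation. In most mouse tissues the maternal copy of Igf2r is the active one. The paternal copy is silenced by Airn, a long noncoding RNA that starts inside an Igf2r intron and runs antisense across the Igf2r promoter, and the maternal Airn promoter lies in a control region methylated in the egg. In placenta Airn also silences the paternal copies of the organic cation transporter genes Slc22a2 and Slc22a3. In undifferentiated mouse embryonic stem cells Igf2r is known to be active on both parental copies, with Airn coming on during differentiation.

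In the coordinates of the tables (mm9), Igf2r spans 12875272 to 12962530 on the minus strand and Airn 12934177 to 13052988 on the plus strand. The spans share 28354 bases, and Airn also runs into the 3' side of Mas1 (13033945 to 13061009, minus strand). The strand setting of the counting is not given in the sources used here, so reads from these overlaps cannot be assigned to one gene with certainty. Slc22a2 (12777055 to 12821331, plus strand) and Slc22a3 (12612838 to 12700570, minus strand) lie beyond the 3' end of Igf2r.

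The starts of the sense and antisense transcripts differ in sequence, and both are shown because the cluster is organised around this pair of promoters. Each run covers 250 bases before and 50 bases after the RefSeq gene start in the build GRCm38.p6, with CpG dinucleotides, the sites of DNA methylation, in capitals. The Igf2r run is chr17:12769657-12769956 on the minus strand and the Airn run chr17:12741061-12741360 on the plus strand.
Igf2r: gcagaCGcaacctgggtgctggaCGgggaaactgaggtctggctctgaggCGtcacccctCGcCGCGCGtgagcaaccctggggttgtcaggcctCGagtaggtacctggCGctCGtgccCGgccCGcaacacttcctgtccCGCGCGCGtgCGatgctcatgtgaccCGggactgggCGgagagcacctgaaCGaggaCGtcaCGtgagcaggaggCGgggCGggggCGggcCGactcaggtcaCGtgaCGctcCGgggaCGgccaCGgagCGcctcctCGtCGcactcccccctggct
Airn: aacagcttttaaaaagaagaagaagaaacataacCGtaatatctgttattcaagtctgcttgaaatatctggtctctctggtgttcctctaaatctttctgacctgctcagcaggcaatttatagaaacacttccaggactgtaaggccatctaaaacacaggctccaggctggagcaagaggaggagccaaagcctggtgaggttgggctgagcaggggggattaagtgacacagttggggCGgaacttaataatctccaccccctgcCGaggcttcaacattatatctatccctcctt
The Igf2r run holds 34 CpG and is 70.7% G or C, and the Airn run holds 3 CpG and is 45.7% G or C. The median over 32851 RefSeq promoter runs of the same length was 7 CpG. Promoter runs were found for all 5 members, and the Slc22a3, Slc22a2 and Mas1 runs hold 5, 8 and 2 CpG. The hexamer TGCCGC, which ZFP57 is known to bind when its CpG is methylated, was searched on both strands. It is in neither the Igf2r nor the Airn run, it starts 196 bases before the Slc22a2 start, and 11.6% of all runs hold it. The runs end 50 bases after each start, and the methylated control region was not read as a whole. Its CpG content and its hexamers are therefore not described by these runs.

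The libraries were checked before the cluster was read. The listed genes held 26801865 to 66849394 reads per library. In each line below, values of a pair are those of wild type, then knockout. Zfp57 itself was at 135 and 51.8 RPM in the E14 pair and at 796 and 42.9 RPM in the JB1 pair. It was lower in both libraries labelled as knockout, 2.60-fold in E14 and 18.5-fold in JB1. The stem cell factor Pou5f1 was at 480, 442, 925 and 940 RPM in E14 wild type, E14 knockout, JB1 wild type and JB1 knockout. In this same order, the summed level of 14 listed naive pluripotency markers was 3169, 2754, 5309 and 4074 RPM, with none at 0. Primed epiblast markers (10 listed) summed to 88.2, 112, 105 and 264 RPM, and neural markers (8 listed) to 77.8, 85.5, 73.0 and 49.6 RPM. Primitive endoderm markers (12 listed) summed to 18.7, 16.96, 40.1 and 58.5 RPM, trophoblast markers (11 listed) to 7.35, 10.4, 16.4 and 25.9 RPM, and fibroblast or feeder markers (10 listed) to 2.496, 3.14, 9.05 and 19.3 RPM. The placental markers Tpbpa and Prl3d1 and the fibroblast marker Dcn had 0 reads in all 4 libraries.

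Igf2r was strongly expressed in all 4 libraries, and its knockout libraries stood on opposite sides of the wild types in the lines. Igf2r had 11170 and 18942 reads in the E14 pair and 16572 and 11619 reads in the JB1 pair, which are 221, 268, 239 and 120 RPM. The JB1 knockout was the lowest of the 4 and the E14 knockout the highest, with both wild types between them. In E14 the knockout level was 1.21 times the wild-type level (95% exact conditional binomial interval 1.18 to 1.24). In JB1 it was 2.00-fold lower (95% interval 1.95 to 2.05). Each library was scaled to its own total. Listed genes held 53.1% and 53.7% of that total in the E14 pair and 68.6% and 68.9% in the JB1 pair. Levels set across lines are given as deposited, without a correction for this share.

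The JB1 difference lay at the edge of the size used to count genes. On the scale log2((knockout RPM + 1)/(wild-type RPM + 1)) Igf2r was at -0.99 in JB1, just short of the 2-fold limit, and at 0.27 in E14. Of 13132 genes at 1 RPM or more in either JB1 library, 208 lay beyond 2-fold on the lower side (1.58%) and 328 on the higher side (2.5%), 4.08% together, and 212 genes had a lower value than Igf2r. Scaling by the summed reads of the listed genes (-1.00049) or by median-of-ratios factors within the line (-1.05) put Igf2r beyond the 2-fold limit. Of 12276 such genes in E14, 117 lay beyond 2-fold on the higher side (0.953%) and 33 on the lower side (0.269%), 1.22% together, and 2056 genes had a higher value than Igf2r. The median over all genes was 0.02 in E14 and 0.01 in JB1.

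Marker sums moved between the libraries of both lines. In the JB1 knockout, where Igf2r was lower, the naive pluripotency and neural sums were lower than in the wild type, and the primed epiblast, primitive endoderm, trophoblast and fibroblast sums were higher. In the E14 knockout, where Igf2r was higher, the naive sum was also lower and the primed, trophoblast and fibroblast sums also higher. The neural and primitive endoderm sums went the other way there, the neural sum higher and the primitive endoderm sum lower. Of 14 naive markers measured in each line, 9 were lower and 5 higher in E14, and 12 were lower and 2 higher in JB1. The highest of the 14 was Klf2 in E14, at 0.32, and Tdgf1 in JB1, at 0.14. Over all measured genes, 46.5% were lower in E14 and 48.5% in JB1. Klf4 was at 410 and 164 RPM in the JB1 pair, Fgf4 at 295 and 136 RPM and Nanog at 693 and 362 RPM. A further naive marker, Tfcp2l1, is listed as Tcfcp2l1 and was left out of these counts and sums. Its difference was -0.71 in E14 and 0.41 in JB1. Of 8 primed markers measured in JB1, 6 were higher and 2, Otx2 (2.80 and 2.06 RPM) and Sall2 (5.77 and 4.70 RPM), were lower. Beyond 2-fold were Dnmt3a (19.9 and 84.9 RPM) and Dnmt3b (61.4 and 145 RPM), which methylate DNA de novo. Of 4 trophoblast markers measured in JB1, 2 were higher and 2 lower, with Krt8, a keratin of simple epithelia, at 5.79 and 13.96 RPM. Of 4 neural markers measured in JB1, 2 were also higher and 2 lower, 1 of these beyond 2-fold, with a median of -0.14. The part of these shifts in the Igf2r difference was not tested. In bulk RNA, fewer expressing cells and less RNA per cell cannot be told apart.

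**Figure D1:**
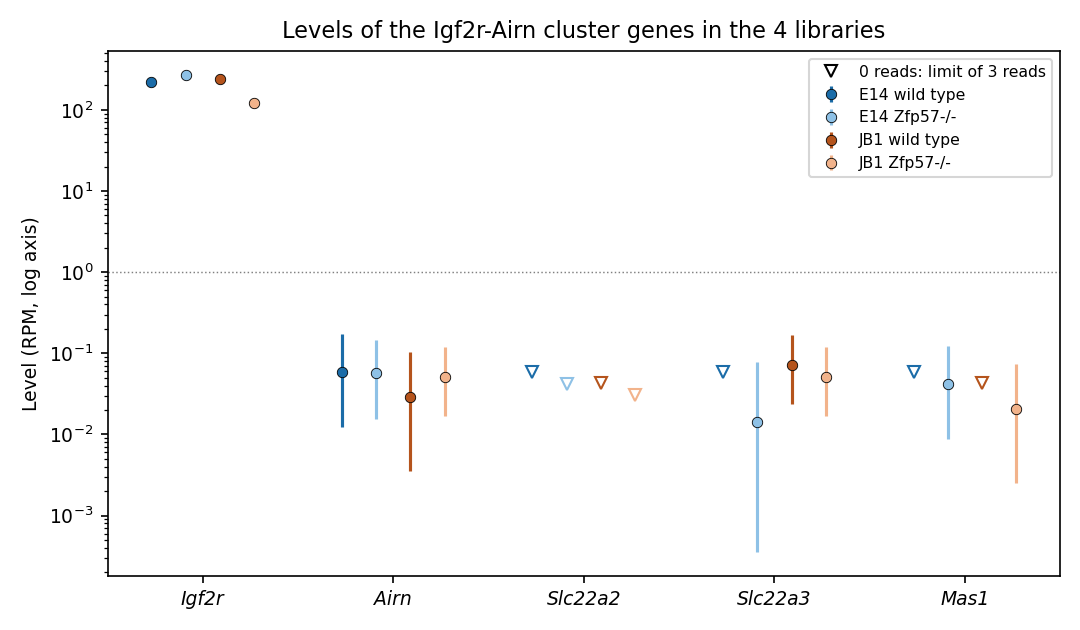
Level of the 5 cluster genes in each library, in RPM on a log axis, with bars for the 95% exact Poisson interval of the reads and open triangles for libraries with 0 reads, drawn at the level of 3 reads. Igf2r sits between 120 and 268 RPM, and each filled point of the other genes lies below 0.2 RPM.

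Airn was close to undetected in every library. It had 3 and 4 reads in the E14 pair and 2 and 5 reads in the JB1 pair, which are 0.0594, 0.0566, 0.0289 and 0.0515 RPM. The 4 counting intervals overlapped. The ratio of knockout to wild type was 0.952 in E14 (95% interval 0.161 to 6.50) and 1.78 in JB1 (0.292 to 18.7), so a difference of severalfold in either direction was not detectable at this depth. Reads at the level of Airn could also come from Igf2r or Mas1 transcripts in the overlaps.

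The sense and antisense transcripts were set against each other within each library, where the scaling cancels. Airn reads made up 0.0269% of the reads of both genes in wild-type E14 (95% Clopper-Pearson interval 0.00554 to 0.0784), 0.0211% in its knockout (0.00575 to 0.0540), 0.0121% in wild-type JB1 (0.00146 to 0.0436) and 0.0430% in its knockout (0.0140 to 0.1004). The JB1 knockout had the highest share and JB1 wild type the lowest, and their intervals overlapped. Per kilobase of GENCODE M21 exons (9.308 kb for Igf2r, 3.597 kb for Airn), the level of Igf2r was between 898 and 3202 times that of Airn. The annotation behind the deposited counts is not given in the sources used here, so these lengths may differ from the ones counted. The Airn exons are 3.597 kb of a span of 118812 bases. Whether reads from the rest of that span were counted is not known.

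Another imprinted antisense RNA was well detected in the same libraries. Kcnq1ot1, which silences neighbours on chromosome 7, was at 258 and 315 RPM in the E14 pair and at 49.9 and 51.7 RPM in the JB1 pair. Per kilobase of exon (93.092 kb) its level was 2.77, 3.38, 0.536 and 0.555 RPM in the order of the libraries above, against 0.0165, 0.0157, 0.00803 and 0.0143 RPM for Airn. The Airn exons cover only 3.597 kb of its span of 118812 bases. The levels of these RNAs are therefore not measured alike. A list of Airn, Kcnq1ot1, Nespas, Tsix, Meg3, Rian and the protein-coding Ube3a had 6 members at 1 RPM or more in each line, all but Airn. Of these 6, 4 were higher in the E14 knockout and 5 in the JB1 knockout, against 53.5% and 51.5% of all measured genes. Their medians were 0.31 and 0.12 on the log2(RPM + 1) scale. The JB1 median was 1.53 over the members at 5 RPM or more, and the mean over the 6 was 1.01. Meg3 (56.8 and 459 RPM) and Rian (57.7 and 633 RPM) were at least 2-fold higher in JB1, as were 2.5% of all measured genes.

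The transporters and Mas1 were as quiet as Airn. Slc22a2, which carries organic cations in the kidney, had 0 reads in all 4 libraries, which allows levels up to 0.0309 to 0.0594 RPM with a limit of 3 reads. Slc22a3, a transporter of monoamines and other cations, had 0 and 1 reads in the E14 pair and 5 in each JB1 library, at most 0.0722 RPM. Its JB1 knockout level was 0.713 times the wild-type level (95% interval 0.164 to 3.10). Mas1, the receptor for angiotensin 1-7, had 0 reads in both wild types, 3 in the E14 knockout and 2 in the JB1 knockout, where both groups of each line are at or under the limit of 3 reads. The 4 quiet members had 30 reads in all, and Igf2r held 99.9% of the 58333 reads of the cluster.

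Per kilobase of exon, Igf2r led the cluster in every library, at 23.8 and 28.8 RPM in the E14 pair and 25.7 and 12.9 RPM in the JB1 pair. It ranked high among all genes with reads and a matched exon length (22850 of 26130 listed genes had such a length). In the E14 libraries 1014 of 15697 and 862 of 16395 such genes had a higher level per kilobase, and in JB1 1224 of 16311 in the wild type and 2540 of 17152 in the knockout. The next members ranged from 0.0031 to 0.0165 RPM per kilobase where they had reads, and their order could not be set, since their counting intervals overlapped and several had 3 reads or fewer.

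The neighbourhood of Igf2r did not move as one block. In the span from 1 Mb before to 1 Mb after Igf2r, 34 genes were analysed. Without Igf2r, 11 were at 1 RPM or more in E14 and 12 in JB1, none of them was 2-fold apart, and their median difference was -0.01 in E14 and 0.19 in JB1. In E14, 5 were higher and 6 lower, from -0.51 to 0.23. In JB1, 8 were higher and 4 lower, from -0.58 to 0.93. Across all measured genes, 53.5% were higher in E14 and 51.5% in JB1, and 1.22% and 4.08% were at least 2-fold apart. Over chromosome 17, the median was 0.06 in E14 (606 genes) and -0.01 in JB1 (661 genes).

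The expressed genes nearest the Airn start, apart from Igf2r, were Pnldc1, Mrpl18 and Tcp1. Pnldc1, a nuclease that trims piRNAs, was at 7.29 and 7.24 RPM in the E14 pair and at 17.7 and 17.2 RPM in the JB1 pair, with each line's libraries close together. Mrpl18, a mitochondrial ribosomal protein gene, was at 61.1 and 69.3 RPM in the E14 pair and at 49.2 and 56.5 RPM in the JB1 pair. Tcp1, a subunit of the cytosolic chaperonin, was at 341 and 365 RPM in the E14 pair and at 337 and 472 RPM in the JB1 pair, higher in both knockouts. Tcp1 overlaps Mrpl18 on one side and Acat3 on the other, on the opposite strand.

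The acetyl-CoA acetyltransferase genes beyond Tcp1 had the largest positive differences of the span in JB1. Acat2 was at 27.9 and 53.9 RPM in the JB1 pair, with the knockout 1.94 times as high, and at 22.7 and 24.6 RPM in the E14 pair. Acat3 was at 10.2 and 19.6 RPM in the JB1 pair and at 7.23 and 8.63 RPM in the E14 pair. They are close copies and may share reads. Sod2, the mitochondrial superoxide dismutase, was at 128 and 121 RPM in the E14 pair. Its JB1 levels were 196 and 131 RPM, with the knockout 1.49-fold lower (95% interval 1.46 to 1.53). Wtap, part of the RNA methyltransferase complex that makes N6-methyladenosine, was at 149 and 137 RPM in the E14 pair and at 212 and 181 RPM in the JB1 pair, lower in both knockouts.

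On the transporter side, Agpat4, a lysophosphatidic acid acyltransferase gene, was at 11.5 and 13.3 RPM in the E14 pair and at 15.2 and 20.2 RPM in the JB1 pair. Map3k4, a stress kinase gene, was at 19.6 and 17.7 RPM in the E14 pair and at 24.9 and 27.5 RPM in the JB1 pair. At the far end, Mllt4, which encodes the junction protein afadin, was at 140 and 121 RPM in the E14 pair and at 109 and 104 RPM in the JB1 pair. Tcte2 was at 2.81 and 1.68 RPM in the E14 pair and at 4.73 and 7.598 RPM in the JB1 pair; its span holds other listed genes and overlaps Mllt4. Smok4a, of the sperm motility kinase family, was under 1 RPM in both E14 libraries and at 2.95 and 3.51 RPM in JB1. Among the other genes with under 1 RPM were the plasminogen gene Plg and the receptor gene Mrgprh, with 0 reads in every library, and Park2, at 0.0722 to 0.594 RPM.

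**Figure D2:**
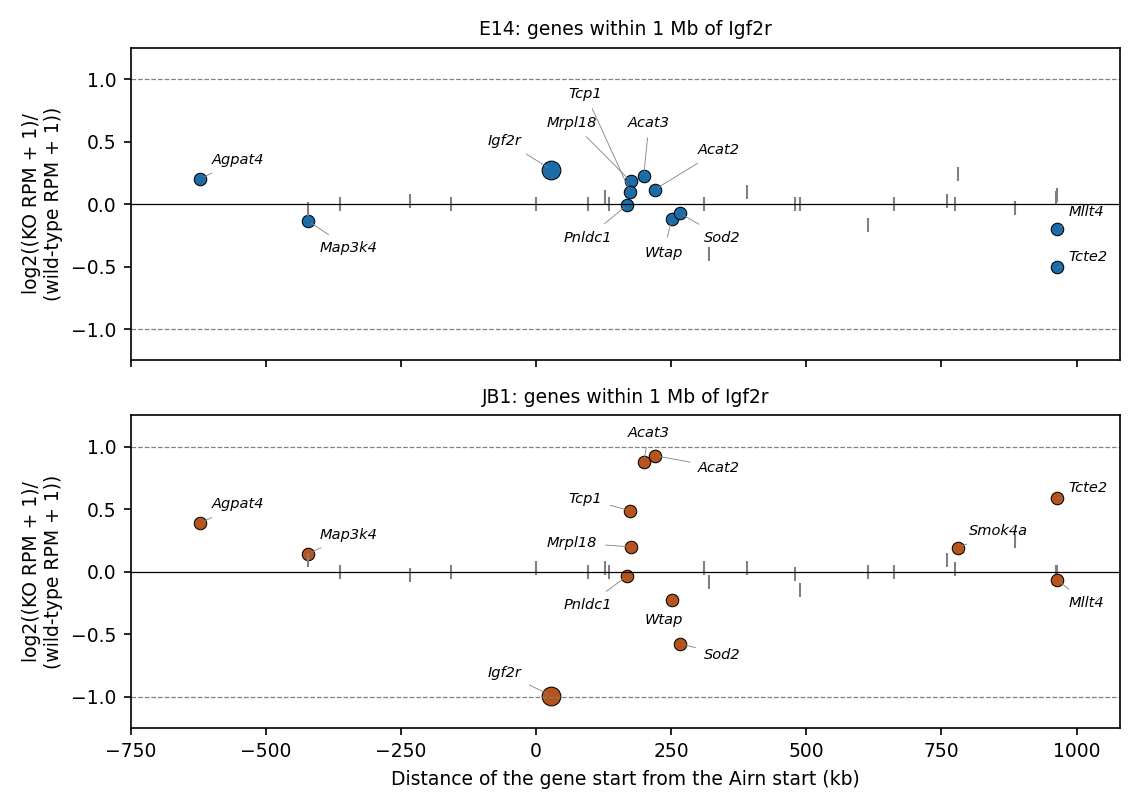
Knockout difference, log2((knockout RPM + 1)/(wild-type RPM + 1)), of the genes within 1 Mb of Igf2r against the distance of their start from the Airn start in kb, with E14 above and JB1 below. Filled points are genes at 1 RPM or more in either library of the line, grey ticks are genes under it (the start of Park2 falls outside the axis) and dashed lines mark 2-fold. Igf2r is at 0.27 in E14 and -0.99 in JB1, the lowest point of the JB1 panel.

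A genotype effect common to E14 and JB1 was then sought with limma on log2(RPM + 1), with the cell line as a block, over 12644 genes at a mean of 1 RPM or more. No gene passed a Benjamini-Hochberg adjusted p of 0.05 (0% called), the smallest adjusted p was 0.623, and 1005 genes had an unadjusted p under 0.05. Zfp57 itself was not called either, with a shared change of -2.77 (SE 0.58, limma adjusted p = 0.623). The lack of calls therefore does not show that no effect is common to the lines. With 2 lines, each gene had 1 residual degree of freedom, moderated with 5.28 prior degrees of freedom. For Igf2r the shared change was -0.36 (SE 0.30, limma adjusted p = 0.738), with the lines on opposite sides of 0. For Acat2 it was 0.52 (SE 0.22, limma adjusted p = 0.629) and for Sod2 -0.33 (SE 0.18, limma adjusted p = 0.655). The other 4 members were below the filter. The difference between the lines cannot be tested with 1 library per line and genotype.

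The genes whose pair of differences was most like that of Igf2r were found among 2636 genes with a mean level within 4-fold of that of Igf2r. The measure was the distance between the E14 and JB1 differences on the log2 scale, over the 4 libraries. The closest was Jam2, a junctional adhesion molecule gene on chromosome 16, at 207, 244, 363 and 179 RPM (distance 0.04). Next came Mme, which encodes the endopeptidase neprilysin, at 74.6, 87.3, 109 and 54.0 RPM (distance 0.05), the meiotic cohesin gene Stag3 (distance 0.08), Ahnak (distance 0.10) and the stress-response gene Nupr1 (distance 0.10). Counting Igf2r, 635 of 2637 genes at such levels were higher in the E14 knockout and lower in the JB1 knockout, and 22 had an E14 difference that exceeded the JB1 difference by at least the 1.27 seen for Igf2r.

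**Figure D3:**
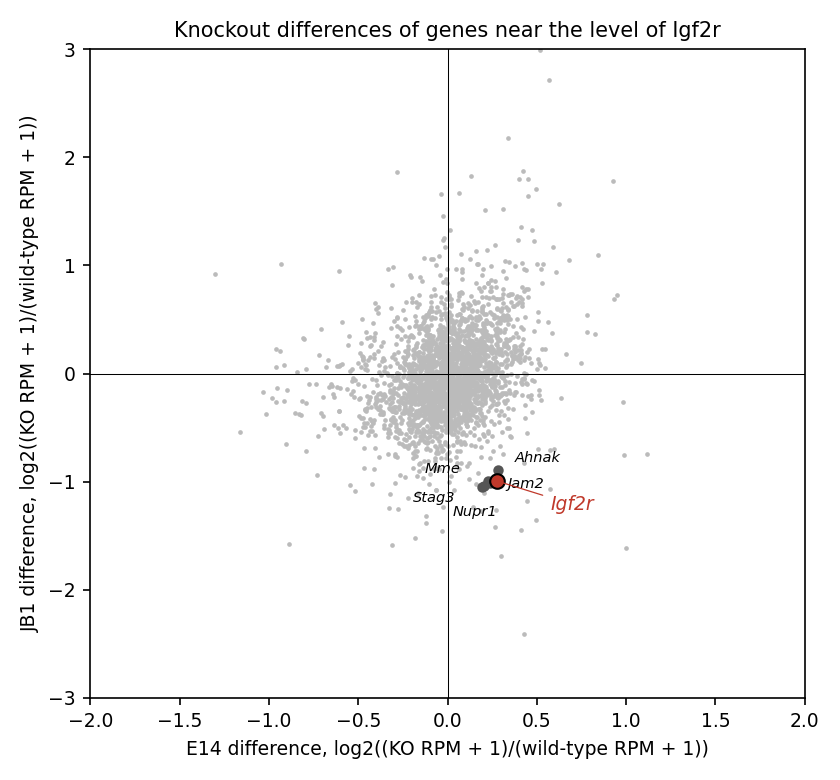
Knockout difference in JB1 against that in E14, both as log2((knockout RPM + 1)/(wild-type RPM + 1)), for 2634 genes with a mean level near that of Igf2r (3 more fall outside the axes). Igf2r is in red at 0.27 and -0.99, with the 5 genes closest to it in dark grey.

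The ligand side of the receptor was followed through genes of the insulin-like growth factor (IGF) system. Igf2, the ligand that IGF2R removes, was low in all libraries, at 1.11 and 0.665 RPM in the E14 pair and at 5.202 and 4.08 RPM in the JB1 pair. The JB1 knockout was 1.27-fold lower (95% interval 1.10 to 1.47). Igf1 was under 0.2 RPM in every library. Igf1r, the signalling receptor for both ligands, was at 10.8 and 6.65 RPM in the E14 pair and at 17.4 and 15.1 RPM in the JB1 pair, lower in both knockouts. The insulin receptor gene Insr was at 11.8 and 10.4 RPM in the E14 pair and at 28.5 and 20.9 RPM in the JB1 pair. Per kilobase of exon the level of Igf2r exceeded that of Igf1r in every library, with Igf1r at 0.645, 0.396, 1.03 and 0.9001 RPM.

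Of the IGF list of 26 genes, Igf2r included, 17 were at 1 RPM or more in E14, with a median of 0.08. Of these, 10 were higher in the knockout (53.5% over all measured genes) and 7 lower. None was 2-fold apart, against 1.22% of all measured genes. In JB1, 19 were measured, 6 higher and 13 lower, with a median of -0.19, with 1 gene beyond 2-fold on the higher side and 2 on the lower side, against 2.5% and 1.58% of all measured genes. Of all 13132 genes measured in JB1, 6366 (48.5%) were lower. The higher one was H19, the noncoding RNA that shares its control region with Igf2, at 53.5 and 186 RPM in the JB1 pair and at 9.91 and 19.7 RPM in the E14 pair. The lower ones were Grb10, an adaptor that dampens insulin and IGF receptor signalling, at 220 and 12.04 RPM in the JB1 pair and at 323 and 200 RPM in the E14 pair, and the secreted binding protein gene Igfbp7, at 3.12 and 0.680 RPM in JB1 and 1.78 RPM in each E14 library. H19 and Grb10 are imprinted themselves.

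The second mannose 6-phosphate receptor gene, M6pr, which encodes the cation-dependent receptor, stayed close to its wild-type level. It was at 206 and 183 RPM in the E14 pair and at 157 and 136 RPM in the JB1 pair, 1.12-fold (95% interval 1.09 to 1.15) and 1.15-fold (1.13 to 1.18) lower in the knockouts. The median over all measured genes of its chromosome, 6, was -0.28 in E14 and 0.06 in JB1. Per kilobase of exon its level was above that of Igf2r in every library, at 49.3, 43.9, 37.6 and 32.6 RPM.

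All 24 genes of the list for mannose 6-phosphate tagging, receptors and Golgi to endosome sorting were measured in both lines. In each line 14 were higher and 10 lower, none was 2-fold apart, and the medians were 0.02 in E14 and 0.05 in JB1. Of all measured genes, 53.5% were higher in E14 and 51.5% in JB1, and 1.22% and 4.08% were at least 2-fold apart. Igf2r had the lowest value of the list in JB1. The others in JB1 included Gnptg, a subunit of the enzyme that tags hydrolases, at 20.5 and 13.0 RPM, and Gnptab, its catalytic subunit gene, at 27.1 and 29.7 RPM. The retromer gene Vps35, which returns the receptor from endosomes, was at 200 and 223 RPM in the E14 pair and at 267 and 223 RPM in the JB1 pair. The clathrin adaptor subunit gene Ap1s1 was higher in both knockouts, at 12.2 and 17.9 RPM in the E14 pair and at 26.9 and 48.4 RPM in the JB1 pair.

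The lysosomal hydrolases, the cargo of these receptors, went both ways. Of 39 listed genes, 36 were measured in E14 (18 higher, 18 lower, median 0.00) and 38 in JB1 (16 higher, 22 lower, median -0.03). Among all measured genes, 46.5% were lower in E14 and 48.5% in JB1, and 1.22% and 4.08% were at least 2-fold apart. The one gene of the list at least 2-fold apart was Gaa, which breaks down glycogen. It was at 97.1 and 47.8 RPM in the JB1 pair and at 60.3 and 60.7 RPM in the E14 pair. Manba, a mannosidase gene, was at 119 and 233 RPM in the JB1 pair and at 69.6 and 55.1 RPM in the E14 pair. The lowest E14 value was that of the cathepsin gene Ctsb (56.3 and 29.4 RPM), with 83.8 and 88.7 RPM in JB1. Ctsb lies on chromosome 14 in a stretch, 41 to 77 Mb, whose 231 measured genes had a median of -0.63 in E14, 216 of them lower.

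**Figure D4:**
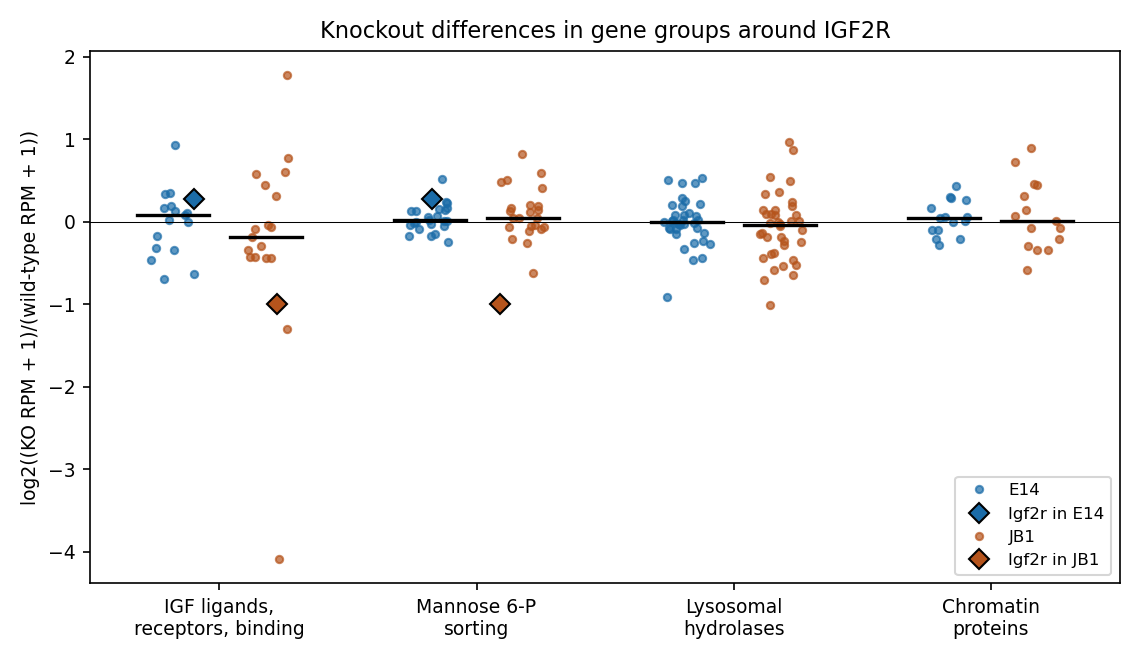
Knockout difference, log2((knockout RPM + 1)/(wild-type RPM + 1)), of measured genes in 4 lists around the receptor, with E14 in blue and JB1 in orange, a point per gene and a bar at the list median. Diamonds mark Igf2r, at 0.27 in E14 and -0.99 in JB1, where it is the lowest of the sorting list.

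The chromatin proteins that act in imprinting and with long noncoding RNAs were all expressed. Of 15 listed genes, all measured in both lines, 10 were higher and 5 lower in the E14 knockout (median 0.05) and 8 higher and 7 lower in the JB1 knockout (median 0.01), with none 2-fold apart. The shares higher over all measured genes were 53.5% in E14 and 51.5% in JB1, and the shares at least 2-fold apart 1.22% and 4.08%. Ehmt2, the G9a histone methyltransferase gene through which Airn is known to silence Slc22a3 in placenta, was at 34.5 and 29.9 RPM in the E14 pair and at 64.2 and 120 RPM in the JB1 pair. The maintenance methyltransferase gene Dnmt1 was at 216 and 243 RPM in the E14 pair and at 264 and 265 RPM in the JB1 pair, and its partner Uhrf1 was at 227 and 237 RPM in the E14 pair and at 246 and 406 RPM in the JB1 pair. The Polycomb genes Ezh2 (123 and 168 RPM) and Rnf2 (158 and 105 RPM) differed in direction in JB1.

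Outside the cluster, other genes of the same transport and hormone families were expressed at low to moderate levels. Of 8 listed organic cation transporters, Slc22a2 and Slc22a3 of the cluster among them, 4 were measured in E14 and 5 in JB1. All of these measured genes were higher in the knockout libraries, with medians of 0.30 and 0.23 and none 2-fold apart. Over all measured genes, 53.5% were higher in E14 and 51.5% in JB1, and 1.22% and 4.08% were at least 2-fold apart. The smallest difference of the list was 0.15 in E14 and 0.02 in JB1. These medians rest on few genes and were 0.70 and 0.13 over the members at 5 RPM or more. The extruder gene Slc47a1 was at 6.08 and 10.5 RPM in the E14 pair and at 1.03 and 1.86 RPM in the JB1 pair, and the carnitine transporter gene Slc22a5 was at 3.41 and 3.88 RPM in the E14 pair and at 6.50 and 6.62 RPM in the JB1 pair. Of 11 listed genes of the renin-angiotensin system, Mas1 among them, 3 were measured in E14 (2 higher, median 0.07) and 4 in JB1 (1 higher, median -0.57), and none was 2-fold apart.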

How the data were processed

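The deposited tables, 1 per cell line, hold log2 values of reads per 1000000 (RPM) of a library total as made by the authors, not corrected for gene length. Per the submitters' processing notes, the build was mm9 and the tools included TopHat2 2.0.8b, CASAVA 1.8.2 and cutadapt. How reads or read pairs were counted, and on which annotation and strand, was not given in these sources. A value of 0.9 read stood for genes without any, and whole reads were recovered for 100% of the values above it (relative tolerance 0.0001). Totals behind the scaling were 50478922, 70691473, 69204114 and 96996280 reads.

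RPM were computed as reads over these totals. Differences used a pseudocount of 1 RPM, which understates changes of low genes; fold values used none. Intervals (95%, SciPy 1.17.1) and the limit of 3 reads cover counting error only, and reads are not independent molecules. The shared effect was fitted with limma 3.58.1 in R 4.3.3 (eBayes with trend) and tested on simulated data. Because the deposited unit is a log value, no count model was run. Sample groups followed the labels. Exon lengths came from GENCODE M21 by symbol, promoters from RefSeq (GRCm38.p6).

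The members and lists were chosen with earlier results of these data known. Named were the members, Zfp57, Igf2, H19, Igf1r, M6pr and Kcnq1ot1, and genes within 1 Mb of Igf2r. Also named were members of the lists other than cell markers at least 2-fold apart, and the 5 genes most like Igf2r. Other list genes, cell markers included, were chosen after their values were seen, as examples. Not every cell marker at least 2-fold apart is named. Some results are not reported here. Alternatives were other pseudocounts, filters, scalings and model terms.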

Additional observations from a re-analysis of the deposited data

Results flagged for a closer look

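Igf2r was higher in the E14 knockout library and lower in the JB1 knockout library, each beyond counting error, and its E14 difference exceeded its JB1 difference by 1.27 on the log2(RPM + 1) scale. In the span around it, Map3k4 and Tcte2 had the opposite order, lower in the E14 knockout and higher in the JB1 knockout, with E14 minus JB1 differences of -0.28 and -1.09. With 1 library per line and genotype, the difference between the lines was not tested in any of these cases.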

How the results depend on the processing

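The Igf2r difference kept its direction in both lines under every pseudocount and scaling tried. Median-of-ratios scaling within a line moved it from 0.27 to 0.24 in E14 and from -0.99 to -1.05 in JB1, more than counting error, and it moved the median of all genes to -0.01 and -0.04. The counts of genes at least 2-fold apart depended on the pseudocount. With 0.5 RPM, 183 genes were higher and 50 lower in E14. With 5 RPM, 44 were higher and 6 lower in E14, and 111 were higher and 83 lower in JB1. In the shared test, no gene was called by limma under any pseudocount, filter, trend or scaling tried, with 799 to 1688 genes at an unadjusted p under 0.05 while the block was kept. Without the replicate block for the cell line, 0 genes were called, 16 had an unadjusted p under 0.05 and the Igf2r change was again -0.36. The adjusted p of Igf2r was 0.698 to 0.772 in the fits with the block and 0.9999 without it. The differences of the neighbours of Igf2r moved beyond counting error in 8 cases and not in 84, and none of these 92 turned in direction. Of 102 list values under an alternative, 20 moved by over 0.1 and 5 changed sign. The sorting list went from 0.02 to -0.02 in E14 and from 0.05 to -0.00 in JB1, and the chromatin list from 0.01 to -0.05 in JB1, under median-of-ratios scaling. The mean of the IGF list in E14 was -0.00, and the neural median in E14 went from -0.04 to 0.14 with a 5 RPM filter. The trophoblast median in JB1 went from 0.11 to 1.14 with that filter, and the renin-angiotensin median in JB1 from -0.57 to -0.77. No fit without one library was made, since leaving out a line leaves no residual degrees of freedom. Depth limits Airn, the transporters and Mas1, whose 0 to 5 reads per library leave severalfold differences undetectable.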

Other observations

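Some lysosomal hydrolase genes, picked after their values were seen, were higher in the E14 knockout and lower in the JB1 knockout, as Igf2r was. Asah1, which encodes acid ceramidase, was at 125 and 178 RPM in the E14 pair and at 245 and 150 RPM in the JB1 pair, wild type first, and the cathepsin gene Ctsd was at 330, 380, 341 and 228 RPM in this order. Psap, the precursor of the saposins, was at 166, 179, 371 and 273 RPM. Manba, of the same list, had the opposite order. Of 2637 genes within 4-fold of the mean level of Igf2r, 635 were likewise higher in the E14 knockout and lower in the JB1 knockout. A link of these hydrolases to Igf2r was not tested.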
